A study of Mus musculus with 8 samples.

Results

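Neutrophils were picked out of dissociated mouse cortex by single-cell RNA sequencing. They were chosen by their RNA for S100a8 and S100a9, the subunits of the calprotectin complex. A barcode was kept with at least 500 detected genes and under 15% of its unique molecular identifiers (UMIs, each standing for 1 captured RNA molecule) from mitochondrial genes. A kept cell was called a neutrophil when S100a8 and S100a9 together made up at least 100 UMIs per 10,000 of that cell (CP10k), when the endothelial genes Cldn5, Flt1 and Pecam1 together stayed under 20 CP10k, and when the microglial genes C1qa and C1qb together stayed under 20 CP10k. This gave 104 neutrophils among 50254 kept cells of 56961 deposited barcodes, or 0.207% of the kept cells.

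The study profiled cortex of mice lacking a laminin chain of the vascular basement membrane. Lama4-/- mice lack laminin alpha4 everywhere. Tek-Cre:Lama5-/- mice lack laminin alpha5 where Tek-Cre is active, which is the endothelial lineage and, as general background, much of the blood lineage. Each mutant had its own wild-type (WT) group, so there were 4 groups: WT for the Lama4 experiment (Lama4 controls), Lama4-/-, WT for the Lama5 experiment (Lama5 controls) and Tek-Cre:Lama5-/-. All groups were 8-week-old mice perfused with ice-cold PBS, with no further treatment stated, and the tissue of 3 brains was pooled for each group. Perfusion washes blood out of the vessels, and no label says whether the remaining neutrophils lay inside or outside them. The 2 samples deposited for Lama4-/- hold identical counts and were counted as 1 library, so 7 libraries were used and values of Lama4-/- have no replicate. Both libraries of every other group come from 1 pool, so their p-values cover only the spread between libraries, which may be technical.

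Neutrophils are short-lived white blood cells made in the bone marrow. Precursors fill their granules in waves while they mature: primary granules with Elane and Mpo first, secondary granules with Camp, Ngp, Ltf and Mmp8 later, and gelatinase granules with Mmp9 last. Mature cells leave the marrow when Cxcr2 signalling outweighs Cxcr4, and the healthy brain parenchyma holds few of them.

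The label was checked on markers that had no part in the choice. Retnlg, a resistin-like secreted protein of neutrophils, was found in 92 of the 104 cells, Mmp9 (gelatinase B) in 92, Csf3r (the receptor of granulocyte colony-stimulating factor) in 85, Il1r2 (a decoy receptor for interleukin 1) in 84, Clec4d (a C-type lectin) in 75, Cxcr2 (a chemokine receptor) and Trem1 (an activating receptor) in 73 each, Mmp8 (neutrophil collagenase) in 69, Ngp in 67, Ly6g in 60 and Camp in 55. Per 10,000 UMIs, Retnlg stood at 108 in the neutrophils and at 0.00965 in all other kept cells. Ly6g, the surface protein used to sort mouse neutrophils, stood at 3.61 against 0.000321. Both genes were thus nearly confined to the chosen cells, at ratios of 11138 and 11274, close to the ratio of Camp at 11309.

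Markers of other cells the suspension could hold were mostly low, but astrocyte markers were high in Lama5 control 2. Several defining genes of T cells (Cd3e, Cd3g, Trbc2), NK cells (Ncr1), B cells (Cd79a, Ms4a1), monocytes and dendritic cells (Ccr2, H2-Aa, H2-Ab1, Ms4a6c), perivascular macrophages (Mrc1, Cd163) and basophils (Mcpt8, Prss34) were at 0 in 700081 UMIs. Other genes of these lists were seen: Nkg7 (a granule protein of cytotoxic lymphocytes) gave 46 UMIs in 9 cells, Ighm (the immunoglobulin mu chain) 32 in 26, Cd3d 4, Fn1 5, Cd74 and Siglecf 3 each, and Cd79b, Igkc, F13a1, Pf4 and Lyve1 1 each. Ly6c2, which monocytes and neutrophil precursors share, gave 442 UMIs in 65 cells. The 8 microglial markers summed to between 1.51 and 3.81 CP10k per library, and the 8 endothelial markers to between 0 and 2.76. The 6 astrocyte markers summed to 61.4 CP10k in Lama5 control 2 and to between 0 and 7.02 in the other 6 libraries, beside 7.18 in all other kept cells. The 4 choroid plexus markers reached 10.6 CP10k in Lama4-/- and at most 2.54 elsewhere, and the 6 oligodendrocyte markers ranged from 0 to 16.5. The 8 pericyte and smooth muscle markers ranged from 0 to 4.25 CP10k, and the 5 erythroid markers from 0 to 5.05. A cell was taken as doublet-like with at least 3 UMIs over at least 2 markers of the same list. The monocyte and erythroid lists were left out of this rule, and 3 and 9 cells would have passed on them. By the rule 39 of the 104 cells qualified, and they were kept in the main analysis. The microglial list was passed by 14 cells, the oligodendrocyte and choroid plexus lists by 11 each. The endothelial and the pericyte and smooth muscle lists were passed by 6 each and the astrocyte list by 4. A cell could pass on more than 1 list. No doublet caller was run, and no barcode of a neutrophil was shared between libraries.

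The limit on S100a8 and S100a9 fell in a sparse region of values. The kept cell just outside had 55.0 CP10k and 42014 UMIs, and the cells just inside had 126, 221, 223, 234 and 279 CP10k. The median over the 104 cells was 2677 CP10k and 86 of them passed 1000. S100a9 alone gave 15.6% and S100a8 12.6% of all neutrophil UMIs, followed by Camp with 3.52% and Ngp with 2.56%. Depth was uneven: the median neutrophil had between 3925 and 5969 UMIs in the Lama4 experiment and between 1254.5 and 2580 in the Lama5 experiment. Lama4 control 1 held 11 of the 13 neutrophils above 15000 UMIs, which carried 60.4% of its neutrophil UMIs, and Lama4-/- held the other 2, with 52.9%.

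The label of the Lama4-/- library held in the whole suspension, where Lama4 gave 2 UMIs against 1460 and 1353 in its controls. Lama5 gave 820 and 860 UMIs in the Tek-Cre:Lama5-/- libraries and 1472 and 1386 in their controls. Scaled to the UMIs of the kept cells, this was 0.228 and 0.250 CP10k against 0.332 and 0.331, a smaller difference than in raw UMIs. Neutrophils themselves gave 0 UMIs of Lama4 and 1 of Lama5, so the deletions could not be read in these cells.

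The genes the results turn on are shown first by the DNA in front of them, because Camp, Ngp and Ltf ran together across the neutrophils, Chil3 followed them, and Retnlg and Il1b did not. Camp encodes the antimicrobial peptide cathelicidin, Ngp a granule protein of the cathelicidin and cystatin fold, Ltf the iron-binding lactoferrin, Chil3 the chitinase-like protein Ym1, and Il1b the cytokine interleukin 1 beta. The sequences are RefSeq windows on GRCm38.p6, trimmed to the bases before the GENCODE gene start and written on the strand of the gene, so none overlaps a transcribed base. Capitals mark matches to TTGCNNAA (a C/EBP-type motif) or GAGGAA (a PU.1-type motif), searched on both strands, with no overlap between the C/EBP-type and PU.1-type matches.
Camp, chr9:109849618-109849706, minus strand: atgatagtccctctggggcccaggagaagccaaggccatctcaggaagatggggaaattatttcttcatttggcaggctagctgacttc
Ngp, chr9:110419558-110419746, plus strand: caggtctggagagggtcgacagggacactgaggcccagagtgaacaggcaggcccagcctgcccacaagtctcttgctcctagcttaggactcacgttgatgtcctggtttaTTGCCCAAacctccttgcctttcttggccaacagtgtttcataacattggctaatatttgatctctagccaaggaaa
Ltf, chr9:111019042-111019270, plus strand: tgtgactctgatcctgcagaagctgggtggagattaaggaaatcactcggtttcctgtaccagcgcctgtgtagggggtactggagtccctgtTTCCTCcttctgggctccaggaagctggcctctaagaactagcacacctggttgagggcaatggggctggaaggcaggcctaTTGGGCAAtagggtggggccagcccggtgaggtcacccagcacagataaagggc
Chil3, chr3:106167565-106167814, minus strand: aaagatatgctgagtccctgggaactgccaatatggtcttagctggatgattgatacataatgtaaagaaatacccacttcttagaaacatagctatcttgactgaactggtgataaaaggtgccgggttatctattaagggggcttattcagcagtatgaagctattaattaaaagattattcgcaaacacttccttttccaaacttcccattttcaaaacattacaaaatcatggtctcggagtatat
Retnlg, chr16:48872358-48872607, plus strand: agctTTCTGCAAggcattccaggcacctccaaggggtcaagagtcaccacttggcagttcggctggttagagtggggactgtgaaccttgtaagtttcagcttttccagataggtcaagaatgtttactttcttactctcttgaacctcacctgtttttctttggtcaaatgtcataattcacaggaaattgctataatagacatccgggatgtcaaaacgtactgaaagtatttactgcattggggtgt
Il1b, chr2:129371140-129371389, minus strand: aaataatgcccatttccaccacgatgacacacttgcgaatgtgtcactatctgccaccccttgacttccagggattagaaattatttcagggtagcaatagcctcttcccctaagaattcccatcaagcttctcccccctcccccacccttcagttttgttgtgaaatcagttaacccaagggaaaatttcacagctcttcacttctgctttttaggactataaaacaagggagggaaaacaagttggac

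Within these windows, Ngp, Ltf and Retnlg held a C/EBP-type match, Ltf also held a PU.1-type match, and Camp, Chil3 and Il1b held neither. Over 32851 RefSeq windows of 250 bases, 9.56% held the C/EBP-type and 23.3% the PU.1-type motif. The secondary granule list used from here on has 9 genes and leaves out Mmp8, which was counted with the tertiary (gelatinase) granule genes. Among its 8 matched genes, 4 held the C/EBP-type and 4 the PU.1-type motif in that window. Among 14 matched genes of a 16-gene list of circulating neutrophils, 2 and 7 did. A match is a description of the letters, and no match says only that the letters are not in this window. Camp, Ngp and Ltf lie within 1195 kb of each other on chromosome 9.

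Neutrophils were 12.6 times as frequent in the Lama4 controls as in the Lama5 controls, and the Lama4-/- library held a smaller share of them than either of its controls. Lama4 control 1 held 44 neutrophils among 5594 kept cells, or 0.787% (95% exact Clopper-Pearson interval 0.572 to 1.05). Lama4 control 2 held 29 among 5332, or 0.544% (0.365 to 0.780). Lama4-/- held 13 among 5355, or 0.243% (0.129 to 0.415). This was 0.365 times their mean of 0.665% ± 0.172 (SD, n = 2), and its interval overlapped that of control 2.

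In the Lama5 experiment neutrophils were scarce in every library. Lama5 control 1 held 5 among 8556 kept cells (0.0584%) and control 2 held 4 among 8527 (0.0469%). Tek-Cre:Lama5-/- library 1 held 6 among 8337 (0.0720%) and library 2 held 3 among 8553 (0.0351%). The Tek-Cre:Lama5-/- libraries lay on either side of their controls. The group means were 0.0535% ± 0.0261 and 0.0527% ± 0.00815 (SD, n = 2 each), a difference of 0.000848 points (exact two-sided permutation p = 1, where 2 against 2 libraries cannot go below 0.33). The difference turned to -0.00492 points without Lama5 control 2 and to -0.0176 points without Tek-Cre:Lama5-/- library 1.

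The WT groups of the experiments did not overlap in their share of neutrophils. Pool and experiment cannot be told apart here, and no test was run on this ratio. RNA of S100a8 and S100a9 outside neutrophils moved with it: 6.49% to 14.7% of the cells positive for endothelial markers held a UMI of either gene in the Lama4 experiment and 0.0566% to 0.253% in the Lama5 experiment, at median depths of 4869 to 6116 and 2769 to 3494 UMIs. The part of this RNA in the share was not tested.

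**Figure D1:**
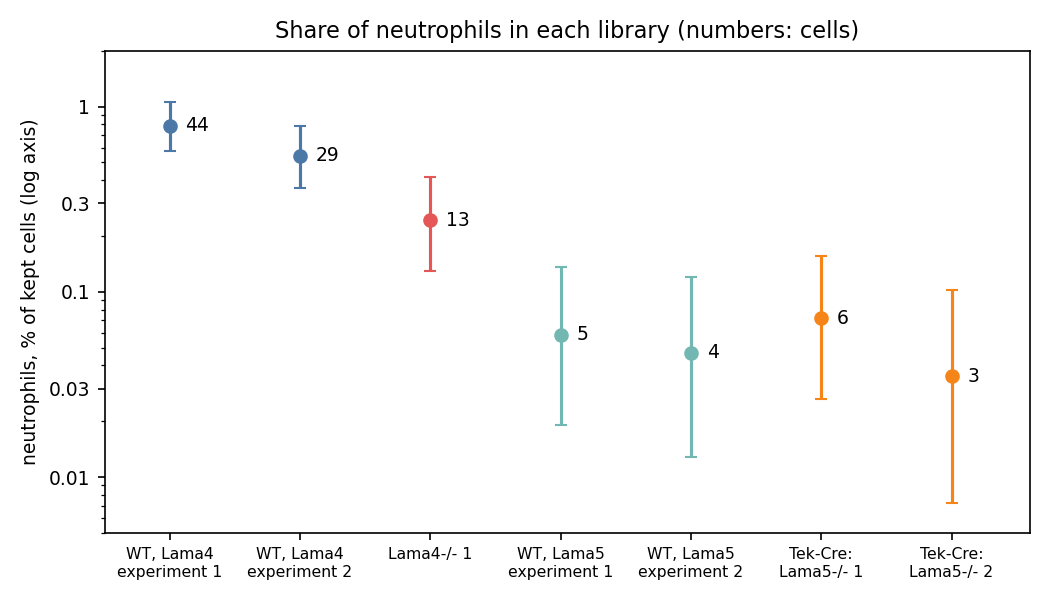
Share of kept cells that were neutrophils (percent) in each of the 7 libraries, with 95% exact binomial intervals that cover counting error only. The 3 libraries of the Lama4 experiment lie between 0.243% and 0.787%, above the 4 libraries of the Lama5 experiment at 0.0351% to 0.0720%.

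The 9 secondary granule genes together ranged from 8.25 to 1169 CP10k between libraries, the neutrophils of Lama5 control 2 lowest and those of Lama4-/- highest. Camp stood at 392 and 214 CP10k in the Lama4 controls, 459 in Lama4-/-, 330 and 0 in the Lama5 controls and 0 and 122 in Tek-Cre:Lama5-/-. Ngp stood at 268 and 175, 369, 272 and 0.917, and 11.4 and 146 CP10k in the same order. Ltf stood at 44.3 and 51.2, 82.0, 62.6 and 0, and 0 and 58.0 CP10k. All 3 genes were at or near their floor in the same libraries, Lama5 control 2 and Tek-Cre:Lama5-/- library 1, where the neutrophils numbered 4 and 6 and where 3 UMIs amount to 2.75 and 3.81 CP10k.

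Lcn2, which encodes the siderophore-binding neutrophil lipocalin, was detected in every library, at 89.6 and 79.0, 125, 109 and 7.34, and 11.4 and 59.4 CP10k. Its lowest values were in the same pair of libraries. Chil3 followed at 72 and 25.6, 119, 49 and 0, and 0 and 34.5 CP10k. Retnlg did not follow this order: it was at 78.5 and 205, 74.5, 191 and 43.1, and 202 and 238 CP10k, so it was high in a library where Camp was at 0. Csf3r was highest where Camp was at 0, with 3.16 and 5.90, 3.30, 3.03 and 11, and 22.8 and 8.29 CP10k.

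Some other genes of neutrophil function were read by library. Il1b stood at 14.1 and 28.2 CP10k in the Lama4 controls, 10.4 in Lama4-/-, 9.08 and 17.4 in the Lama5 controls and 49.5 and 5.52 in Tek-Cre:Lama5-/-, which thus held both the highest and the lowest library. Clec4d stood at 3.25 and 8.24, 2.13, 11.1 and 22.9, and 40.6 and 41.4 CP10k. It did not pass the edgeR test of Tek-Cre:Lama5-/- against the Lama5 controls (log2 difference 1.01, SE 0.56, edgeR adjusted p = 0.922). Mmp9 ranged from 7.34 CP10k in Lama5 control 2 to 22.4 in Lama4 control 2. Cd44 ranged from 3.01 to 18.0 CP10k, with its highest values in the Tek-Cre:Lama5-/- libraries at 17.8 and 18.0 (log2 difference 1.43, SE 0.69, edgeR adjusted p = 0.922).

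**Figure D2:**
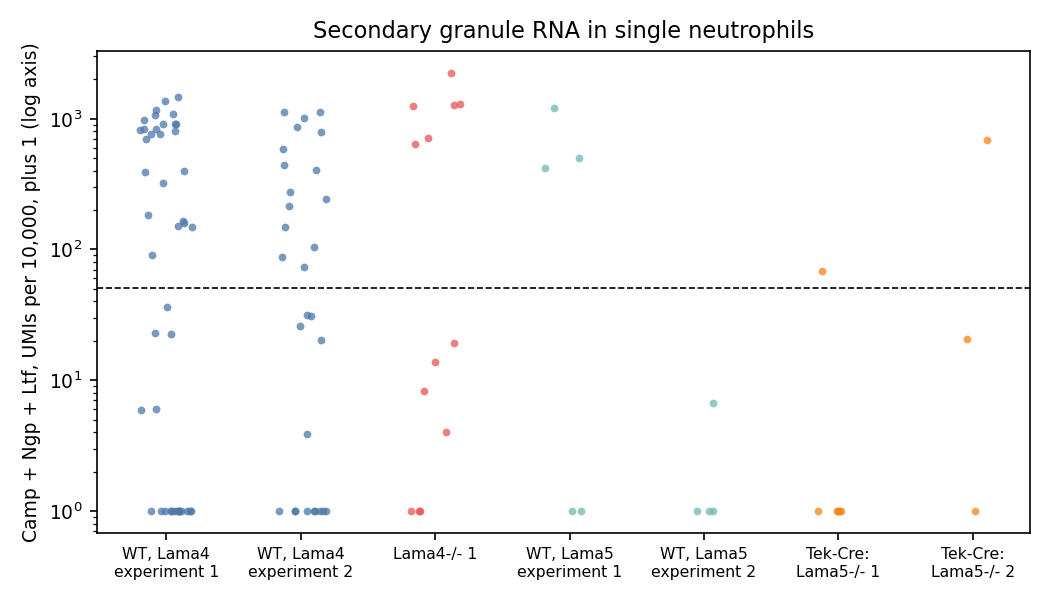
Secondary granule RNA (Camp, Ngp and Ltf together, CP10k) of each neutrophil by library, 1 point per cell. Cells at high and at 0 levels occur side by side in the Lama4 control and Lama4-/- libraries, and Lama5 control 2 holds only low cells.

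Single cells split along this axis. With Camp, Ngp and Ltf together at 50 CP10k or more taken as rich in secondary granule RNA, 51 cells were rich and 53 were not, with 8 cells between 25 and 100 CP10k. This is a range along a score and not a cell type. Rich cells made up 25 of 44 neutrophils in Lama4 control 1 (56.8%, exact interval 41.0 to 71.7), 15 of 29 in control 2 (51.7%, 32.5 to 70.6) and 6 of 13 in Lama4-/- (46.2%, 19.2 to 74.9). The Lama4-/- share lay 8.12 points under the mean of its controls, inside the counting interval of each. In the Lama5 experiment 3 of 5 and 0 of 4 control neutrophils were rich, against 1 of 6 and 1 of 3 in Tek-Cre:Lama5-/-. The groups overlapped, at means of 30% ± 42.4 and 25% ± 11.8 (SD, n = 2 each; exact two-sided permutation p = 1, smallest possible 0.33). The difference of -5 points turned to 25 points without Lama5 control 1 and to 3.33 points without Tek-Cre:Lama5-/- library 1.

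The rich cells also held more RNA. The 31 cells at 500 CP10k or more had a median of 9853 UMIs and 1778 genes, the 20 cells from 50 to under 500 CP10k had 5097.5 UMIs and 1275.5 genes, and the 53 cells below had 2564 UMIs and 975 genes. All 13 neutrophils above 15000 UMIs were rich. When every cell was thinned to 1000 UMIs, 50 of 103 cells remained rich, with 1 shallower cell left out, so the count of rich cells hardly moved with depth.

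Along the axis, levels per cell followed distinct courses. The median Lcn2 level was 141 CP10k in the top range, 68.6 in the middle and 6.75 in the low range. Chil3 was found in 31 of 31, 12 of 20 and 0 of 53 cells, with medians of 81.4, 4.66 and 0 CP10k. Lyz2, the lysozyme of myeloid cells, had medians of 140, 61.5 and 18.3 CP10k. These 3 genes, none of which defined the ranges, were highest in the same range.

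Retnlg and Mmp8 peaked in the middle range. Retnlg had medians of 7.82, 345 and 92.8 CP10k and was found in 25, 20 and 47 cells. Mmp8 had medians of 0, 50.5 and 11.8 CP10k and was found in 15, 19 and 35 cells. Thbs1, which encodes the matrix protein thrombospondin 1, had medians of 4.69, 64.6 and 23.5 CP10k. The course of these 3 genes was not monotonic, so the rank order with granule RNA was near 0 for them (Spearman rho -0.0891 for Retnlg, 0.0847 for Mmp8 and -0.0897 for Thbs1 over 104 cells). Single libraries differed in sign: rho was -0.303 for Retnlg and -0.138 for Mmp8 in Lama4 control 1, and 0.121 and 0.470 in control 2.

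Il1b was highest in the low range, with medians of 0, 12.1 and 54.1 CP10k, and was found in 1 of 31, 12 of 20 and 49 of 53 cells. Csf3r had medians of 0.478, 1.67 and 14.7 CP10k. The chemokine gene Ccl6 had medians of 0, 2.27 and 17.7 CP10k and was found in 2, 15 and 48 cells. Cxcr2 had medians of 0, 5.84 and 7.60 CP10k and was found in 12, 18 and 43 cells.

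For Chil3, Il1b and Csf3r the rank order kept its sign in single libraries, although cells of a library share its depth and free RNA. Spearman's rho of granule RNA with Chil3 was 0.897 over 104 cells, 0.852 over 103 cells thinned to 1000 UMIs, 0.920 over the 44 cells of Lama4 control 1 and 0.874 over the 29 cells of control 2. With Il1b it was -0.728, -0.734, -0.846 and -0.795 in the same order. With Csf3r it was -0.822, -0.621, -0.850 and -0.792. Camp ran with Ngp at 0.930 and with Ltf at 0.879. These are descriptions over cells, which are not replicates.

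**Figure D3:**
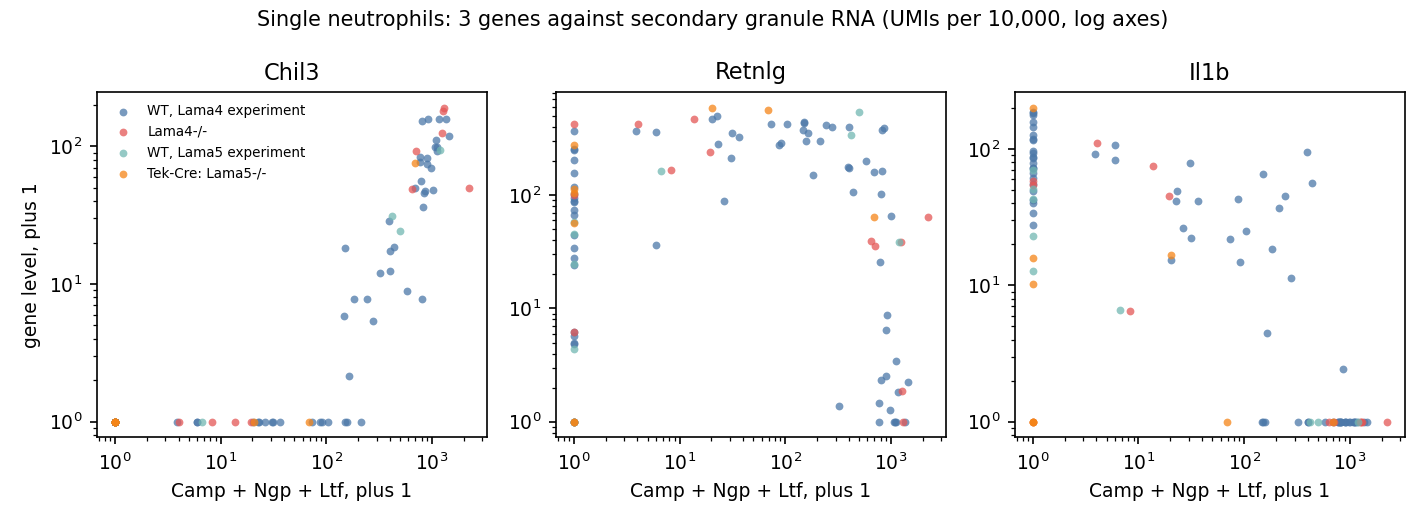
Level of Chil3, Retnlg and Il1b in each neutrophil (CP10k plus 1, log axis) against Camp, Ngp and Ltf together (CP10k plus 1, log axis), 1 point per cell. Chil3 is detected in 0 of the 53 cells under 50 CP10k, Il1b in 1 of the 31 cells at 500 or more, and Retnlg has its highest median, 345 CP10k, between these limits.

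The 3 libraries with at least 5 rich and 5 other neutrophils (Lama4 controls 1 and 2 and Lama4-/-) allowed each gene to be set side by side in all 3. Of 5020 genes with at least 10 UMIs, 943 (18.8%) were higher in the rich cells of every library and 1033 (20.6%) were lower, and the median log2 ratio was -0.07. These shares are the background for the lists below, whose counts are descriptions with no test.

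Among the 9 secondary granule genes, Camp, Ngp and Ltf defined the rich cells. The other 6 were also higher in every library. Lcn2 stood at 110 CP10k in rich cells and 17.5 in the others, and Chil3 at 84.3 against 0, which is at least 415-fold higher when 3 UMIs over the group are taken as the floor. Fcnb, which encodes the lectin ficolin B, stood at 4.29 against 0, at least 21.1-fold higher. Cd177, a neutrophil surface glycoprotein, stood at 6.70 against 1.42 CP10k. Mmp8 and Mmp9 were counted on a separate list of 8 tertiary (gelatinase) granule and secretory vesicle genes. Of these 8, 1 was higher and 2 were lower in rich cells of all 3 libraries. Together they stood at 64.6 CP10k in rich cells and 99.3 in the others.

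Of 12 cell cycle genes, 7 were higher in the rich cells of all 3 libraries and 0 were lower, with a median log2 ratio of 2.95. In the whole set, 22 neutrophils held at least 10 UMIs of these genes, of which 19 lay in the top granule range, 2 in the middle and 1 in the low range. Mki67 (the proliferation antigen Ki-67) was found in 12, 1 and 0 cells of the 3 ranges. Mki67 or Top2a (topoisomerase II alpha) was found in 13 neutrophils, and both in 9. A fixed number of UMIs is reached more easily in deep cells, and all but 2 of the 13 deepest cells came from Lama4 control 1.

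Primary granule RNA was nearly confined to 3 cells of Lama4 control 1. Elane (neutrophil elastase) gave 535 UMIs and Mpo (myeloperoxidase) 96, both in these 3 cells and in 0 of the other 101. The cell with the most held 346 UMIs of Elane, 292 of Prtn3 (proteinase 3) and 87 of Mpo among 26388 UMIs, at a secondary granule level of 323 CP10k. A second held 139 UMIs of Elane and 148 of Prtn3 among 35654 UMIs. The third held 29 UMIs of Prtn3 among 36990. All 3 were rich in secondary granule RNA.

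Of 16 circulating neutrophil genes, 14 were lower in all 3 libraries and 1, Wfdc21 (a secreted protein of the WAP family), was higher, with a median log2 ratio of -2.60. Csf3r stood at 1.10 CP10k in rich cells and 15.2 in the others, Il1r2 at 1.76 and 12.5, and Clec4d at 1.41 and 20.2. Of 8 chemoattractant receptors, 5 were lower and Ltb4r1, a leukotriene B4 receptor, was higher, at 4.02 against 0.406 CP10k. Cxcr2 stood at 1.57 against 9.82 and Cxcr4 at 0.706 against 5.69 CP10k, so both receptors of the marrow-exit balance were lower in rich cells.

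Of 12 cytokine and chemokine genes, 10 were lower in rich cells of all 3 libraries and 0 were higher, with a median log2 ratio of -2.55. Il1b stood at 3.69 CP10k in rich cells and 64.3 in the others, 17.4-fold apart. The difference for Ccl6 was 23.0-fold (0.905 against 20.8) and that for Cxcl2, which encodes a ligand of Cxcr2, was 20.2-fold (1.16 against 23.4). Genes known to respond to tissue digestion were lower in the same cells: 9 of 13 were lower in rich cells and 1 was higher, with a median log2 ratio of -1.43. The part of digestion in the cytokine values was not tested.

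Of 11 transcription factors, 8 were lower in rich cells and 2 were higher. Cebpe, required for secondary granule genes, stood at 3.28 CP10k in rich cells and 0.203 in the others, with Cebpd the other higher one. Cebpb, known from emergency granulopoiesis, stood at 18.4 and 67.9 CP10k. The C/EBP family members thus took opposite sides. Cybb, Cyba and Ncf4, subunits of the NADPH oxidase, the enzyme of the oxidative burst, were higher in rich cells of all 3 libraries, and Cybb stood at 14.9 against 1.49 CP10k. Of 7 interferon response genes 5 were lower and 0 were higher, and of 10 adhesion genes 4 were lower and 0 were higher. Retnlg was higher in rich cells of 1 library and lower in the other 2, at 85.4 against 190 CP10k over all.

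**Figure D4:**
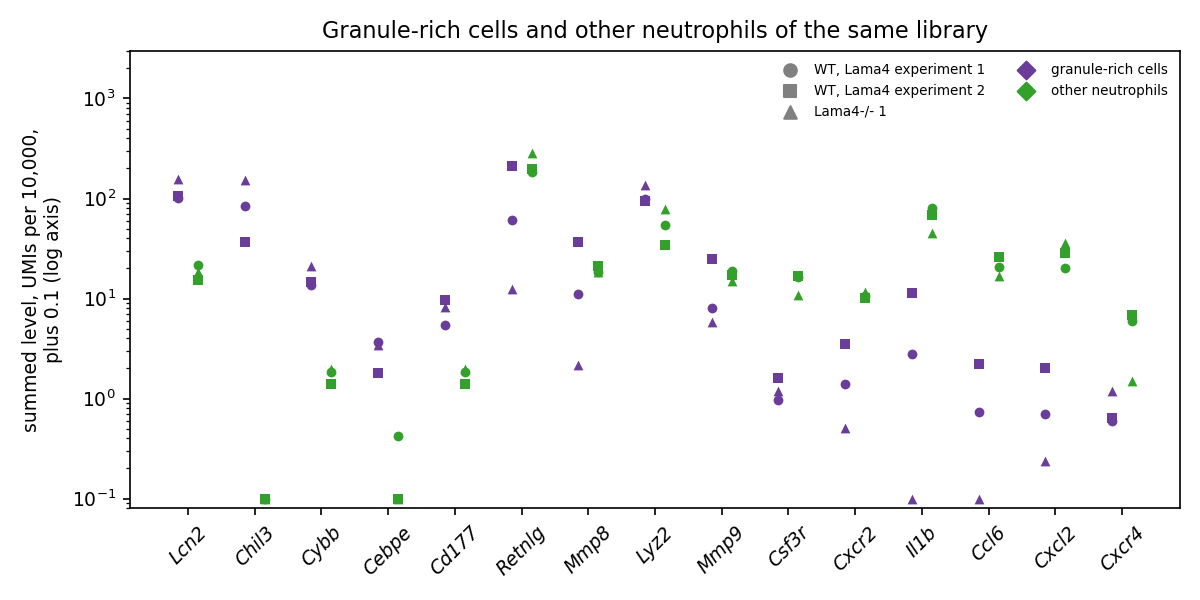
Level of 15 genes (CP10k plus 0.1, log axis) in neutrophils rich in secondary granule RNA and in the other neutrophils of Lama4 controls 1 and 2 and Lama4-/-. The secondary granule list genes Lcn2, Chil3 and Cd177 lie higher in rich cells of each library and Il1b, Csf3r and Ccl6 lie lower.

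No gene was called in neutrophils between Tek-Cre:Lama5-/- and its controls by the test available. Summed counts per library allowed 105 genes to be tested with edgeR's quasi-likelihood test, and 0 (0%) passed a Benjamini-Hochberg adjusted p of 0.05, with 2 at an unadjusted p under 0.05, and DESeq2 called 0. Those 2 were Fos, an immediate early transcription factor, and Prdx6, a peroxiredoxin, which was named after its value was seen. Fos stood at 11.1 and 43.1 CP10k in the Lama5 controls and at 1.27 and 0 in Tek-Cre:Lama5-/- (22 and 47 against 1 and 0 UMIs), a log2 difference of -5.40 (SE 1.30, edgeR adjusted p = 0.922). Its edgeR adjusted p was 0.00680 with no filter on low counts, 0.0366 with the crossed block and 0.000297 without Lama5 control 1, and between 0.151 and 1 in the other edgeR alternatives that tested it. Lama5 control 2, with the higher Fos level, is the library where astrocyte markers reached 61.4 CP10k, and 1 of its 4 neutrophils gave 5929 of its 10905 UMIs. The part of that cell in the Fos value was not tested. Prdx6 differed by -1.71 on the log2 scale (SE 0.54, edgeR adjusted p = 0.922).

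Lists in this comparison were small. Of 5 secondary granule genes tested, 0 were above 0 and the median log2 difference was -0.91, beside 0.00 over the 105 genes tested. Of 10 circulating neutrophil genes tested, 8 were above 0 and the median was 0.57. DESeq2 size factors moved the median of all genes from 0.00 to -0.10. Camp differed by -1.58 (SE 3.22), Retnlg by 0.65 (SE 0.93), Il1b by 0.70 (SE 1.03) and Csf3r by 0.89 (SE 0.87) on the log2 scale, each with an edgeR adjusted p of 0.922. For Camp the standard error exceeded the difference, and its control libraries stood at 330 and 0 CP10k. These 4 libraries held 18 neutrophils in all.

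Neutrophils of the single Lama4-/- library were set beside both controls by a rule of size, with no test: the 95% exact Poisson interval of Lama4-/- lay apart from both control intervals on the same side, the ratio to the control mean was at least 2, and the gene had at least 20 UMIs. Of 3133 genes, 31 (0.989%) passed, 23 (0.734%) higher and 8 (0.255%) lower. With library sizes scaled by the trimmed mean of M values, 35 genes passed, 10 higher and 25 lower, of which 18 were shared, and the median log2 ratio of all genes moved from -0.06 to -0.25. The split into higher and lower genes thus depended on the scaling, while the 31 genes kept their sign under it.

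Mmp8 was lower and Wfdc17, a secreted WAP-family protein, was higher under all 9 settings tried. Mmp8 stood at 12 and 32 CP10k in the controls and at 5.74 (interval 4.31 to 7.49) in Lama4-/-, from 54 UMIs in 11 cells. This library held 0 neutrophils in the middle granule range, where Mmp8 is highest, against 9 in each control. Within the low range the median Mmp8 level was 15.3 CP10k in Lama4-/- against 11.8 and 12.3 in the controls. In the top range it was 0.950 against 0 and 35.4. These medians rest on 7 and 6 Lama4-/- cells. The part of the empty middle range in the Mmp8 value was not tested. The log2 ratio over all neutrophils was -1.94 and ranged from -2.48 to -1.07 over the settings. Wfdc17 stood at 0.538 and 1.36 CP10k in the controls and at 4.04 (2.86 to 5.55) in Lama4-/-, but its 38 UMIs came from 2 cells. Ttr, the transthyretin of choroid plexus, also passed each time, at a level 32.9 times higher in other kept cells, and was set aside as possible free RNA together with Vtn, Rgs5, Sparcl1 and mt-Nd2.

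Other genes lower in Lama4-/- were Asprv1 (an aspartic protease), at 2.08 and 2.19 CP10k in the controls and 0.319 in Lama4-/-, and Ifitm1 (an interferon-induced membrane protein), at 2.03 and 2.04 against 0.532. Il1b stood at 14.1 and 28.2 against 10.4 (8.46 to 12.7), a log2 ratio of -1.02. Olfm4, a granule glycoprotein of a subset of neutrophils, stood at 1.99 and 0.907 CP10k in the controls and 0 in Lama4-/-, where 3 UMIs amount to 0.319. Without the neutrophils above 15000 UMIs, Olfm4 was at 0 in control 1 too and did not pass the rule. Of the genes past the rule, 4 of 8 lower and 10 of 23 higher ones still passed without those cells. Il1b and Asprv1 were thus low in Lama4-/- against 2 controls that for Il1b also differed from each other.

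Cell cycle genes and 1 granule gene were among those higher in Lama4-/-. Mki67 stood at 1.94 and 0.378 CP10k in the controls and 4.04 in Lama4-/-, Ube2c (a mitotic ubiquitin-conjugating enzyme) at 2.38 and 0.227 against 5.95, and Ccnb1 (cyclin B1) at 0.280 and 0.0756 against 1.49. Chil3 stood at 72 and 25.6 against 119 CP10k (112 to 126). Of 12 cell cycle genes, 4 passed as higher and 11 lay above 0 (11 with the other scaling), with a median log2 ratio of 1.39. Of 9 secondary granule genes, Chil3 passed and 8 lay above 0 (6 with the other scaling), with a median of 0.60. Of 16 circulating neutrophil genes 1 passed as higher and 1 as lower, 2 lay above 0 (1 with the other scaling), and the median was -0.52.

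A few deep cells carried these list values. Without the neutrophils above 15000 UMIs, 2 of them in Lama4-/- and 11 in control 1, the median log2 ratio of the secondary granule list was 0.28 with 5 of 8 genes above 0, that of the circulating list was -0.14, that of the cytokine list moved from -0.57 to -0.07, and only 1 cell cycle gene kept 20 UMIs. Mki67, Ube2c and Ccnb1 were at 0 in the remaining Lama4-/- neutrophils. Slc1a2, an astrocyte glutamate transporter with the largest ratio of all (3.93 CP10k against 0.701 and 0.151), took 89.2% of its Lama4-/- UMIs from a single cell with 2299 genes. Without doublet-like cells, 14 genes passed and 3 of them were among the 31, and Chil3 and Il1b then changed sign, with log2 ratios of -0.88 and 0.72. This left 6 of 13 neutrophils in Lama4-/-, 2 of them rich, and 25 of 44 in control 1, 12 of them rich. In control 2 it left 22 of 29, 12 of them rich. Neutrophil UMIs fell from 94068 to 18734 in Lama4-/- and from 427875 to 161258 in control 1. The part of this loss in the sign changes was not tested.

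**Figure D5:**
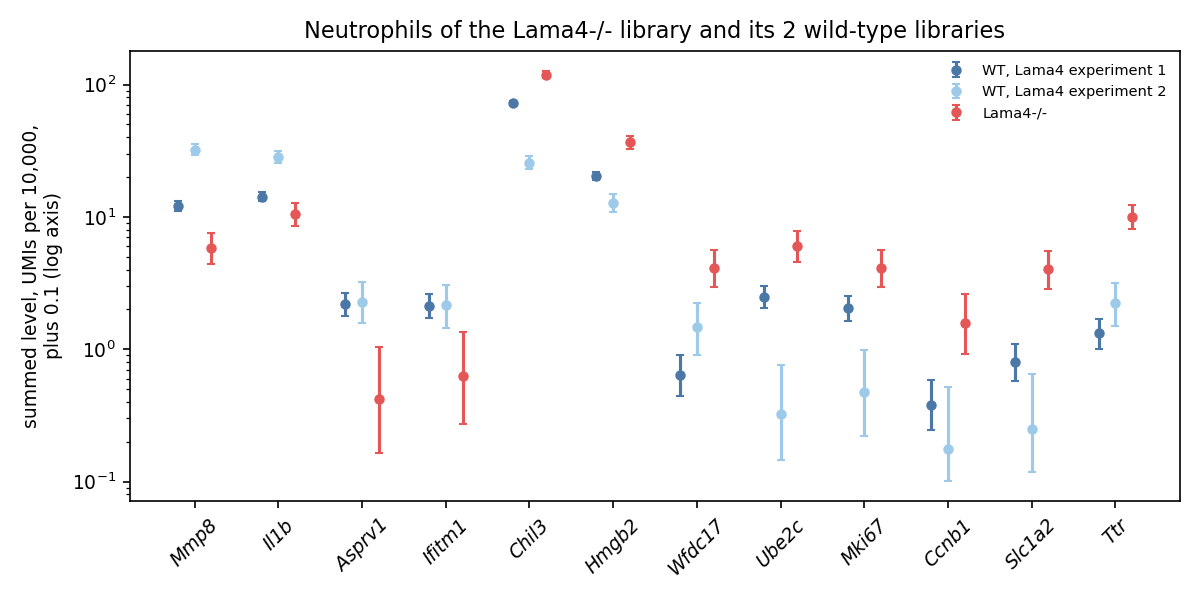
Levels of 12 genes (CP10k, log axis) in neutrophils of Lama4 controls 1 and 2 and of Lama4-/-, with 95% exact Poisson intervals that cover counting error only. Mmp8, Asprv1 and Ifitm1 in Lama4-/- lie under both controls, and Chil3, Wfdc17, Ube2c, Mki67, Ccnb1, Slc1a2 and Ttr lie above them.

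The WT groups of both experiments were compared as a scale for these differences. Of 966 genes tested, 3 (0.311%) were called by edgeR's quasi-likelihood test, all higher in the Lama5 controls: Lars2, a mitochondrial leucyl-tRNA synthetase (log2 difference 3.57, SE 0.85), Ccl4, a chemokine of macrophages and microglia (3.77, SE 0.87), and AY036118, which overlaps the ribosomal RNA locus (3.52, SE 0.82), each at an adjusted p of 0.0365. Lars2 stood at 0.561 and 0.907 CP10k in neutrophils of the Lama4 controls and at 12.6 and 7.34 in those of the Lama5 controls, with no overlap. In other kept cells it stood at 1.63 and 1.79 in the Lama4 controls and 7 and 6.81 CP10k in the Lama5 controls, so a higher level was not particular to neutrophils. Ccl4 and AY036118 stood at 10.6 and 10.0 times their neutrophil level in other kept cells, over the limit of 5 for genes that may be free RNA. AY036118 was also higher in other kept cells of the Lama5 controls, at 36.3 and 37.0 CP10k against 5.11 and 5.09. Ccl4 was lower there, at 3.20 and 3.05 CP10k against 16.3 and 16.0. In neutrophils Ccl4 stood at 0.421 and 0.756 CP10k in the Lama4 controls and at 2.02 and 20.2 in the Lama5 controls. The part of free RNA in these levels was not tested. Lars2 was called in 4 of 14 alternatives, at adjusted p from 0.000142 to 0.321, and was higher in all 14. No secondary granule gene was called among 8 tested, 0 of which lay above 0 (median -0.78, beside -0.26 over all genes tested, or -0.12 with DESeq2 size factors). The count of 3 went to 0 without Lama5 control 2, to 35 without Lama5 control 1 and to 5 without Lama4 control 1, and without Lama4 control 2 the 3 genes called were all lower.

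Because the study concerns laminins, receptors for them were read in the neutrophils. Itga6, the alpha chain of the laminin-binding integrin alpha6 beta1, gave 10 UMIs in 9 cells, or 0.143 CP10k against 3.35 in other kept cells and 5.35 in cells positive for endothelial markers. Itgb1, its beta chain, gave 29 UMIs in 21 cells, or 0.414 against 3.47 CP10k. The leukocyte integrin chains Itgam and Itgb2 gave 247 UMIs in 82 cells and 267 in 84, at 3.53 and 3.81 CP10k, and Itga9 gave 0. Cd44, a receptor for hyaluronan, stood at 4.09 CP10k against 0.0475 in other kept cells. Beside all other kept cells, where Itgam and Itgb2 stood at 0.748 and 0.317, neutrophil RNA was thus high for Itgam and Itgb2 and low for Itga6 and Itgb1. Cells positive for C1qa and C1qb held more Itgam, at 4.37 CP10k, and less Itgb2, at 1.76. Cells chosen by Ccr2 or Ly6c2 held as little Itga6, at 0.120, but more Itgb1, at 2.42. Itga6 had too few UMIs to enter any of the comparisons, and Itgb1 did not pass the rule of size in Lama4-/-.

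For comparison, 115 other kept cells were chosen by Ccr2 or Ly6c2, with little S100a8 and S100a9. Ccr2 is a gene of monocytes, and Ly6c2 is shared by monocytes and neutrophil precursors. The 5 primary granule genes summed to 35.7 CP10k in these cells against 17.8 in neutrophils, and the 12 cell cycle genes to 39.1 against 36.6. The part of neutrophil precursors in this set was not tested. Lyz2 stood at 92.2 CP10k in neutrophils and 102 in these cells. Ccr2, used to choose the latter, stood at 0 against 5.37, and Cd74, the invariant chain of antigen presentation, which was not used, at 0.0429 against 26.3. Chil3 stood at 66.5 against 5.06, Il1b at 16.5 against 3.14, Thbs1 at 23.9 against 15.6 and Itgb1 at 0.414 against 2.42 CP10k. These are descriptions of chosen cells and were not tested.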

How the data were processed

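Cortical cells of 7 distinct libraries were sequenced with the Chromium kit (3′ chemistry), and the deposited matrices hold raw UMI counts per gene and barcode, with no normalization, written by Cell Ranger per the file headers; Seurat 3.1 and mm10 are named in the submitters' processing notes. Members and gene lists were chosen with earlier results of these data known. Cells were kept and chosen by the limits in the report, and counts were divided by each cell's or library's total for CP10k. Summed counts per library were tested with edgeR 4.0.16 in R 4.3.3 (filterByExpr, TMM, quasi-likelihood F test, Benjamini-Hochberg adjusted p under 0.05), with S100a8, S100a9, Cldn5, Flt1, Pecam1, C1qa and C1qb left out of the calls; DESeq2 1.42.0 was an alternative. The gene test was also run on simulated counts. Their spread between libraries was a chosen setting and not that of these data, so that run does not show what could be found here. Intervals are 95% exact binomial or Poisson and cover counting error only. Neutrophil UMIs per library were 427875 and 132300 (Lama4 controls), 94068 (Lama4-/-), 19813 and 10905 (Lama5 controls) and 7878 and 7242 (Tek-Cre:Lama5-/-), so 1 UMI is worth between 0.0234 and 1.38 CP10k. Named genes came from the lists, from called genes whose libraries did not overlap, from the 10 largest ratios per direction past the rule of size, and from the 15 most abundant and 10 most specific genes; a gene at 5 or more times the neutrophil level in other kept cells was set aside as possible free RNA. Gene positions are from GENCODE M21 on GRCm38 and promoter windows from RefSeq. Alternatives covered the cell limits, doublet-like cells, scaling, filters, DESeq2, replicate blocks and leaving out each library; leaving out the cells above 15000 UMIs and the crossed block were chosen after the data were seen.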

Additional observations from a re-analysis of the deposited data

Results flagged for a closer look

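Some neutrophil-like barcodes lay outside the limits used. There were 7 barcodes with at least 200 but under 500 genes that met every other limit, 2 in the Lama5 controls, 5 in Tek-Cre:Lama5-/- and 0 in the Lama4 experiment. A further 7 kept cells passed the S100a8 and S100a9 limit but stood at or above the endothelial limit, 4 in the Lama4 controls, 1 in Lama4-/-, 2 in Tek-Cre:Lama5-/- and 0 in the Lama5 controls. Both sets are a signal in cells the comparisons did not use. The part of cell damage or of doublets in them was not tested.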

How the results depend on the processing

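Of the values for the 7 comparisons under their alternatives, 53 were counted as kept, 20 as moved and 4 as reversed. For the neutrophil share and the rich-cell share of Tek-Cre:Lama5-/-, kept meant the same side only, with no limit on size. Their main differences were 0.000848 and -5 points. Leaving out 1 library gave share differences of -0.0176 to 0.0193 points for Tek-Cre:Lama5-/- (-0.00492 without Lama5 control 2) and -0.544 to -0.301 for Lama4-/-, and rich-cell differences of -35 to 25 points (3.33 without Tek-Cre:Lama5-/- library 1) and -10.7 to -5.57 points. The Lama4-/- difference in rich cells was -17.9 points without doublet-like cells, -16.7 with rich cells from 20 CP10k and -3.53 from 100 CP10k. For Tek-Cre:Lama5-/-, the gene count was 8 with no filter (1 higher, 7 lower) and 0 to 12 with 1 library left out, the 12 (2 higher, 10 lower) without Lama5 control 1. The replicate block gave 0 and the crossed pairing 1. Same-numbered libraries deviated with a correlation of -0.750 over 107 genes. The labels do not say whether the numbers pair libraries, and a correlation from 18 neutrophils cannot decide it. Between WT groups the count of 3 became 6 with DESeq2 size factors, 12 with DESeq2, 13 with no filter, 0 to 35 with 1 library left out, and 0 with the replicate block (correlation -0.0640), the fit over 3 groups, S100a8 and S100a9 from 50 CP10k, 200 genes per barcode, or cells above 15000 UMIs left out. For Lama4-/- the count of 31 became 14 without doublet-like cells, 128 to 162 with 1 control library left out, 37 at a ratio of 1.5, and 34 without cells above 15000 UMIs, of which 14 were shared. Without doublet-like cells the log2 ratios reversed for Arl6ip1 (-1.01), Chil3 (-0.88), Hmgb2 (-0.020), mt-Nd2 (-1.56) and Il1b (0.72), and without cells above 15000 UMIs for Arl6ip1 (-0.54). The causes were not tested. Depth limits the Lama5 experiment most: 3 UMIs amount to 1.51 to 4.14 CP10k per library there and to 0.0701 to 0.319 in the Lama4 experiment.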

Other observations

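Some values belong to no comparison. Gm42418, which overlaps the ribosomal RNA locus, stood at 21.4 and 54.6 CP10k in neutrophils of the Lama4 controls, 44.3 in Lama4-/-, 236 and 338 in the Lama5 controls and 797 and 454 in Tek-Cre:Lama5-/-. All 4 libraries of the Lama5 experiment lay above all 3 of the Lama4 experiment. Ptgs2, the inducible cyclooxygenase, gave 121 UMIs in 34 neutrophils, all in the Lama4 experiment. It stood at 1.59 and 3.48 CP10k in the controls and 0.744 in Lama4-/-, and was at 0 in the 4 libraries of the Lama5 experiment, where 3 UMIs amount to 1.51 to 4.14 CP10k.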
